A study of Homo sapiens with 24 samples.

Results

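The interaction of cell line and doxycycline at 48 h was the change in RNA level from 0 to 48 h in C/EBPδ-inducible MIA PaCa-2 cells minus the same change in control (CTRL) cells. It used 12 of the 24 libraries of the series, 3 in each of 4 groups: CTRL cells at 0 h, CTRL cells at 48 h, C/EBPδ-inducible cells at 0 h and C/EBPδ-inducible cells at 48 h. MIA PaCa-2 is an established human line from a pancreatic ductal adenocarcinoma. Both lines carried a lentiviral Tet-On vector, and only the inducible line held the CEBPD cDNA behind its doxycycline-responsive promoter. The inducible line was a pool of 3 clones marked with mVenus, and CTRL cells were marked with mCherry. Doxycycline was used at 2 µg/mL, a dose the labels also list for the 0 h libraries, which the study's methods describe as untreated. Drug exposure and time in culture therefore increased together in both lines. The comparison asked which transcripts changed in another way, or by another amount, in the line that could make C/EBPδ. Line, clone pool and fluorophore cannot be told apart from the cDNA in any value below.

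C/EBPδ, the product of CEBPD, is a basic leucine zipper transcription factor that binds CCAAT/enhancer sites as a dimer with itself or with other C/EBP proteins. It is scarce in most resting cells and is induced in inflammation and the acute phase response, early in fat cell differentiation and in growth arrest. In an interaction a change of equal size in both lines cancels, so that only what differed between the lines remains.

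Each library held 16780129 to 22598595 reads assigned to genes, and 16306 genes passed the filter on low counts. In a principal component analysis of the 12 libraries, the first component separated the lines and held 61.2% of the variance, and the second separated 0 h from 48 h and held 17.3%. Markers that define pancreatic acinar cells (6 of 6) and pancreatic endocrine cells (5 of 5) had at most 3 reads in every library, as did 3 of 5 immune markers, PTPRC and CD3E among them. The summed immune level was 1.29 to 6.88 CPM outside CTRL cells at 48 h, where it reached 18.8 CPM. Of 6 ductal markers, CFTR was at that floor, and the summed ductal level was 365 to 398 CPM in CTRL cells and 103 to 126 CPM in inducible cells. Fibroblast markers (DCN of 6 at the floor) summed to 594 to 688 CPM in CTRL cells, and in inducible cells to 240 to 254 CPM at 0 h and 198 to 206 CPM at 48 h. Endothelial markers (VWF and KDR of 4 at the floor) summed to 0.417 CPM or less in CTRL cells and went from 1.24 to 1.75 CPM at 0 h to 2.06 to 2.70 CPM at 48 h in inducible cells. The part of these levels in the results was not tested. CPM here means counts scaled to a common library size with trimmed mean of M-values (TMM) factors. CTRL 48 h replicate 1 differed most from its group, with a chi-square per gene of 7.96 and 5.27 against the other two libraries, where replicates of the other groups gave 1.75 to 3.31. CTRL 0 h replicate 3 stood apart in a few low genes, such as S100A9 and KRT17 below, and values without it are given beside several of these genes.

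CEBPD itself (chr8:47736913-47738164 in GRCh38) was read at 4.19, 3.72 and 3.91 CPM in CTRL cells at 0 h and 3.29, 4.34 and 4.43 CPM at 48 h, and 19, 23.5 and 22.3 CPM in inducible cells at 0 h and 211, 199 and 198 CPM at 48 h. All inducible libraries lay above all CTRL libraries already at 0 h, and the 3 inducible libraries at 48 h lay far above the rest. The interaction was 3.21 (SE 0.16, adjusted p = 2.39e-10) on the log2 scale by the quasi-likelihood test of edgeR, adjusted after Benjamini-Hochberg as are all adjusted p values here, from a 9.35-fold rise in inducible cells beside a log2 change of 0.020 in CTRL cells (adjusted p = 0.925). Reads from the cDNA and from the endogenous gene were counted together. Of 6 C/EBP family genes tested, CEBPB and CEBPG had lower interactions, at -0.47 (SE 0.095, adjusted p = 0.00278) and -0.38 (SE 0.090, adjusted p = 0.00951). Both rose in CTRL cells (log2 0.61 and 0.69), and in inducible cells CEBPG rose by 0.31 while the estimate for CEBPB was 0.14 (adjusted p = 0.0823). The call for CEBPG held in 1 and that for CEBPB in 8 of the 12 fits that each left out 1 library.

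At a false discovery rate (FDR) of 0.01, 904 of 16306 genes (5.54%) had an interaction, 461 higher (2.83%) and 443 lower (2.72%). Their median absolute size was 0.50 on the log2 scale, and 121 exceeded a 2-fold difference, 61 higher and 60 lower. The median interaction over all genes tested was -0.010. Larger numbers changed within each line: 4883 genes (29.9%) between 0 and 48 h in inducible cells, 2386 higher and 2497 lower, and 5630 genes (34.5%) in CTRL cells, 2891 higher and 2739 lower. With total counts in place of TMM these splits became 3056 higher and 1857 lower in inducible cells, and 3888 higher and 1967 lower in CTRL cells.

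The 904 genes reached their interaction by several routes. Of these, 264 changed past the FDR in inducible cells alone, 267 in CTRL cells alone, 271 in both lines in the same direction but by different amounts, 93 in both lines in opposite directions, and 9 in neither line. The larger of both changes was in inducible cells for 460 genes and in CTRL cells for 444. For 336 of the 904 genes an exon overlapped an exon of a gene on the other strand, and how the counting used strand is not given in the sources used here, so reads of such pairs may be shared.

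**Figure D1:**
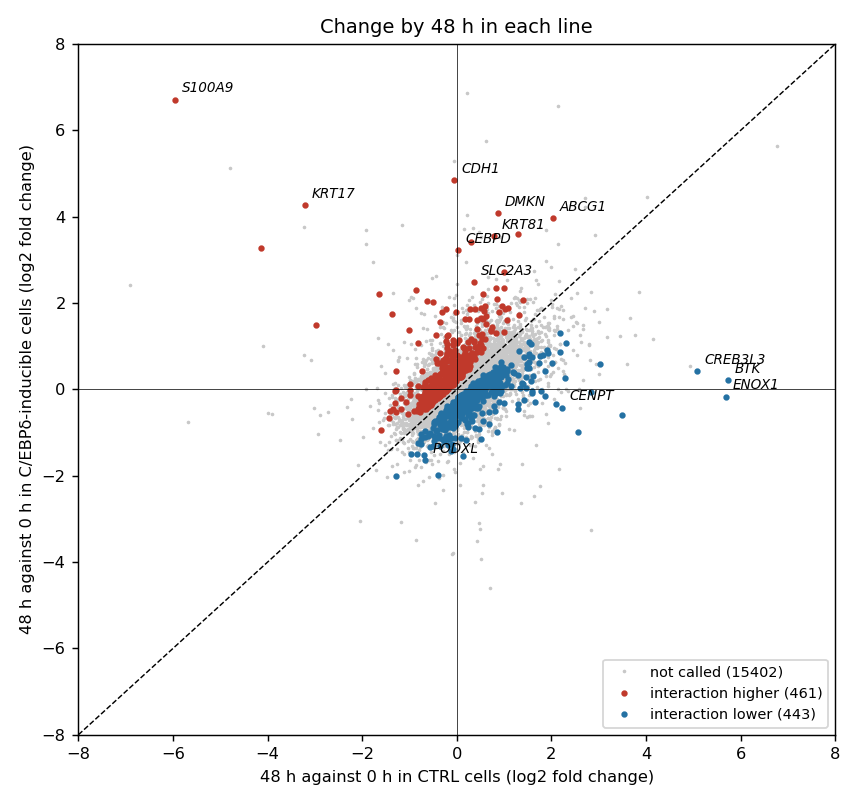
Each point is 1 of the genes tested, at its log2 fold change between 0 and 48 h in CTRL cells (horizontal axis) and in C/EBPδ-inducible cells (vertical axis), and the dashed line marks equal change. The 461 genes with a higher interaction lie above the line and the 443 with a lower one below it, with ENOX1, BTK and CREB3L3 far to the right, where CTRL cells changed and inducible cells hardly did. Of all genes tested, 4, none of them called, lie outside the axes.

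The 6 higher interactions with the smallest p values, among genes above 1 CPM, were those of CEBPD and 5 more. SLC2A3, which encodes a high-affinity neuronal-type glucose transporter, was measured at 151, 146 and 144 CPM in CTRL cells at 0 h and 187, 192 and 188 CPM at 48 h, and 54.3, 54.4 and 58.5 CPM in inducible cells at 0 h and 306, 316 and 315 CPM at 48 h. No group overlapped another, and the inducible line went from the lowest to the highest of the 4 groups. Its interaction was 2.13 (SE 0.054, adjusted p = 8.55e-15), with a 5.61-fold rise in inducible cells and a 1.29-fold rise in CTRL cells. PRND, which encodes the prion-like protein doppel, stood at 60.4, 56.8 and 58.4 CPM in CTRL cells at 0 h and 36.2, 38.3 and 39.3 CPM at 48 h, and 26.3, 30.7 and 28.6 CPM in inducible cells at 0 h and 123, 115 and 117 CPM at 48 h. Here both lines moved, in opposite directions and without overlap, and the interaction was 2.67 (SE 0.079, adjusted p = 5.60e-14).

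SIPA1L2, a member of a family of GTPase-activating proteins for Rap, had 10.8, 12.2 and 10.4 CPM in CTRL cells at 0 h and 8.82, 9.92 and 8.33 CPM at 48 h, and 41.5, 42.6 and 41.4 CPM in inducible cells at 0 h and 149.6, 143 and 142 CPM at 48 h. Inducible cells held more of this transcript than CTRL cells at both times and rose, whereas CTRL cells fell, giving an interaction of 2.09 (SE 0.10, adjusted p = 6.58e-11). TGM2, a calcium-dependent protein cross-linking enzyme, fell in CTRL cells and rose in inducible cells (log2 -0.73 and 0.43). Its levels were 1089.5, 1123 and 1100.3 CPM in CTRL cells at 0 h and 702, 624 and 672 CPM at 48 h, and 621, 636 and 629 CPM in inducible cells at 0 h and 880.0, 823 and 838 CPM at 48 h. Its interaction was 1.16 (SE 0.053, adjusted p = 4.88e-11), and its exons overlap those of RPRD1B on the other strand. COL6A3, a chain of collagen VI, was read at 91.8, 95.3 and 92.6 CPM in CTRL cells at 0 h and 77.6, 77.6 and 76.6 CPM at 48 h, and 284, 285 and 292 CPM in inducible cells at 0 h and 421, 436 and 437 CPM at 48 h. It also rose in inducible cells and fell in CTRL cells, for an interaction of 0.86 (SE 0.048, adjusted p = 8.73e-10). These 5 genes and CEBPD kept their calls in all 12 fits without 1 library.

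**Figure D2:**
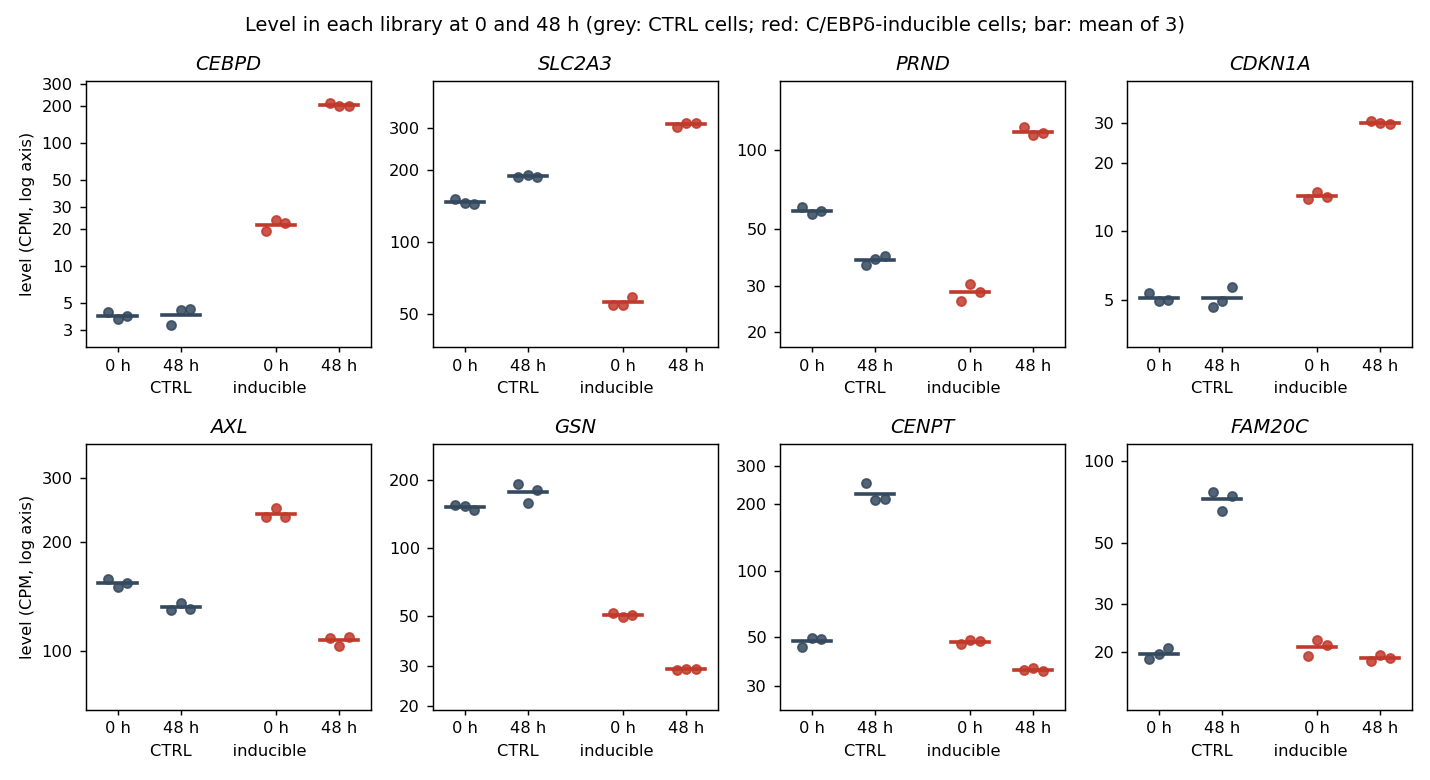
Level of 8 genes in each library (points, CPM on a log axis) at 0 and 48 h in CTRL cells (dark blue) and C/EBPδ-inducible cells (red), with the mean of 3 libraries as a bar. CEBPD, SLC2A3, PRND and CDKN1A end highest in inducible cells at 48 h, AXL and GSN fall there, and CENPT and FAM20C rise in CTRL cells at 48 h.

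Several of the largest higher interactions came from transcripts with few reads in at least 1 group, some of them known from stratified epithelia. KRT81, a hair keratin, was read at 0.223, 0.42 and 0.313 CPM in CTRL cells at 0 h and 0.399, 0.587 and 0.685 CPM at 48 h, and 8.83, 11 and 10.6 CPM in inducible cells at 0 h and 119.7, 118 and 118 CPM at 48 h. It rose 11.7-fold in inducible cells without overlap between times, while its CTRL level stayed under 1 CPM in every library, and the interaction was 2.75 (SE 0.43, adjusted p = 0.000276). DMKN, which encodes the secreted epidermal protein dermokine, had 0.0559, 0.18 and 0.469 CPM in CTRL cells at 0 h and 0.349, 0.411 and 0.58 CPM at 48 h, and 0.696, 0.367 and 0.79 CPM in inducible cells at 0 h and 9.84, 10.5 and 10.8 CPM at 48 h. The 3 inducible libraries at 48 h stood alone. Its interaction was 3.22 (SE 0.67, adjusted p = 0.00364), or 2.20 (adjusted p = 0.172) without CTRL 0 h replicate 3.

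CDH1, the gene of the epithelial adhesion molecule E-cadherin, counted 19, 25 and 11 reads in CTRL cells at 0 h and 2, 33 and 20 reads at 48 h, and 0, 3 and 4 reads in inducible cells at 0 h and 85, 52 and 71 reads at 48 h. The inducible groups did not overlap, whereas the CTRL groups overlapped widely, and the interaction was 4.90 (SE 0.98, adjusted p = 0.00254). The call was lost in 3 of 12 fits without 1 library: 4.36 (adjusted p = 0.012) without inducible 0 h replicate 1, 5.02 (adjusted p = 0.011) without inducible 0 h replicate 2 and 4.56 (adjusted p = 0.0133) without CTRL 0 h replicate 2. It was also lost in the analysis of variance on log2(CPM + 1), at 2.13 (adjusted p = 0.0462). KRT17, a keratin of basal and stressed epidermis, counted 6, 1 and 23 reads in CTRL cells at 0 h and 1, 2 and 0 reads at 48 h, and 0, 1 and 2 reads in inducible cells at 0 h and 19, 29 and 17 reads at 48 h. In inducible cells the group at 0 h was at the counting floor of 3 reads per library, so the level at 48 h was at least 7.06-fold higher, and the fitted interaction of 7.47 (SE 1.23, adjusted p = 0.000432) depends on the prior count. It was 6.05 (adjusted p = 0.00507) without CTRL 0 h replicate 3, and past the FDR no longer in the analysis of variance on log2(CPM + 1). S100A9, a subunit of the myeloid protein calprotectin, counted 2, 0 and 82 reads in CTRL cells at 0 h and 0, 1 and 0 reads at 48 h, and 1, 0 and 0 reads in inducible cells at 0 h and 52, 42 and 49 reads at 48 h. Its inducible libraries were at least 16.2-fold higher at 48 h than at 0 h, and CTRL 0 h replicate 3 stood alone among the CTRL libraries. The fitted interaction was 12.68 (SE 2.18, adjusted p = 0.000686), or 8.11 (adjusted p = 0.0304) and past the FDR no longer without that library.

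Complement component C3 had 8, 2 and 38 reads in CTRL cells at 0 h and 2, 1 and 3 reads at 48 h, and 19, 21 and 14 reads in inducible cells at 0 h and 53, 60 and 40 reads at 48 h. Inducible libraries at 48 h lay above those at 0 h without overlap, and the interaction of 4.46 (SE 0.89, adjusted p = 0.00246) became 2.88 (adjusted p = 0.0212) without CTRL 0 h replicate 3. The remaining members of the largest 12 were GLIPR1 (2.38), the calcium-binding protein gene S100P (3.17), the lysosomal membrane protein gene LAPTM5 (3.12) and the pseudogene CARD17P (2.53), beside PRND and CEBPD. All 12 rose in inducible cells, and 5 of them fell in CTRL cells. For S100A9, KRT17 and C3 most CTRL reads at 0 h came from replicate 3 alone. GLIPR1 kept its call in all 12 fits without 1 library, CARD17P in 11 (2.27 (adjusted p = 0.0141) without CTRL 0 h replicate 3), LAPTM5 in 7 and S100P in 4. The analysis of variance on log2(CPM + 1) also lost S100A9, C3, S100P and LAPTM5 (adjusted p = 0.0879, 0.0717, 0.0633 and 0.0284), beside CDH1 and KRT17. It kept CEBPD, PRND, KRT81, DMKN, GLIPR1 and CARD17P. CARD17P shares exons with CARD16 on its own strand, and GLIPR1 overlaps KRR1 on the other.

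Promoter sequence was read for the named genes from RefSeq, GRCh38.p14, as 250 bases before the annotated start and 50 after it. Letters of the C/EBP consensus (TTGCNNAA, either strand) occurred in the windows of 9 named genes called for the interaction, 4 higher (PRND, CXCL2, NFIL3 and PLAUR) and 5 lower (AXL, KRT8, ITGA5, CDKN2C and MYOF). The windows of PRND, AXL, CXCL2 and NFIL3 are shown as examples from both directions. The element TGATGCAA, at which C/EBP and ATF factors can bind as a composite, occurred in the window of CHAC1, a stress response gene. Capitals mark the match, at most 100 bases around it are shown, and sequences run 5′ to 3′ on the gene's strand and end before the start. In CXCL2, NFIL3 and CHAC1 the motif lies on the other strand, so its reverse complement is printed.
PRND (chr20:4721664-4721763, + strand, match 199 bases before the start): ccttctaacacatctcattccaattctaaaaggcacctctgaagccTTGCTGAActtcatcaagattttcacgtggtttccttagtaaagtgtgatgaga
AXL (chr19:41219137-41219222, + strand, match 40 bases before the start): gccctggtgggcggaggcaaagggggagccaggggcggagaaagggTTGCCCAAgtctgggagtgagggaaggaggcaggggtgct
CXCL2 (chr4:74099330-74099429, - strand, match 188 bases before the start): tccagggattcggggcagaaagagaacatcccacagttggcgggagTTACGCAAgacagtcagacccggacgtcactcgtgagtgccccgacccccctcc
NFIL3 (chr9:91424627-91424707, - strand, match 35 bases before the start): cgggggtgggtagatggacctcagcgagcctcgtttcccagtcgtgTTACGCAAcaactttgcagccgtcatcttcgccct
CHAC1 (chr15:40953221-40953320, + strand, match 209 bases before the start): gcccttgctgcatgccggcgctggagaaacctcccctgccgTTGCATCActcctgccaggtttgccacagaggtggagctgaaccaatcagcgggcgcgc

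These matches are descriptions of the letters. The number of named genes searched is not given, so the matches listed above are not a share. TTGCNNAA was present in 10.6% and TGATGCAA in 0.923% of 27305 promoter windows of the same length. The palindrome TTGCGCAA, which TTGCNNAA includes, was present in 0.128%. In the 10568 windows found for genes tested, these shares were 6.91% for TTGCNNAA, 0.454% for TGATGCAA and 0.199% for TTGCGCAA. CHAC1 had a lower interaction. The share of called genes with a match was not compared with other genes, because windows were found for 353 of 461 higher and 348 of 443 lower genes, under 80% of each.

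The lower interactions with the smallest p values came from genes that rose in CTRL cells and from genes that fell more in inducible cells. CENPT, which encodes a kinetochore protein that links centromeres to microtubules, was read at 45, 49.9 and 49.2 CPM in CTRL cells at 0 h and 251, 209 and 211 CPM at 48 h, and 46.5, 48.6 and 48.4 CPM in inducible cells at 0 h and 35.6, 36.3 and 35.3 CPM at 48 h. CTRL libraries at 48 h stood far above all others, and inducible cells fell, for an interaction of -2.64 (SE 0.092, adjusted p = 7.42e-13). CENPT (chr16:67828157-67847811) shares exonic sequence with THAP11, NUTF2 and TSNAXIP1 on the other strand. THAP11, chosen after its values were seen, fell in CTRL cells (log2 -1.19, adjusted p = 9.47e-10), where CENPT rose by 2.22. The part of shared reads in either value was not tested.

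FAM20C, a Golgi kinase that phosphorylates secreted proteins, also rose in CTRL cells, with 18.9, 19.7 and 20.7 CPM in CTRL cells at 0 h and 76.8, 65.6 and 74.5 CPM at 48 h, and 19.5, 22.3 and 21.3 CPM in inducible cells at 0 h and 18.6, 19.5 and 19.1 CPM at 48 h. Only CTRL libraries at 48 h departed from the level near 20 CPM, and the interaction was -2.01 (SE 0.10, adjusted p = 2.39e-10). PODXL, the sialomucin podocalyxin, was read at 1088, 1094 and 1109 CPM in CTRL cells at 0 h and 682, 698 and 695 CPM at 48 h, and 170.4, 173 and 175 CPM in inducible cells at 0 h and 56.3, 53.5 and 56.4 CPM at 48 h. It fell in both lines (log2 -1.64 in inducible and -0.67 in CTRL cells), and its interaction was -0.98 (SE 0.044, adjusted p = 4.87e-11).

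ATP2B4, a plasma membrane calcium pump, had 429, 438 and 441 CPM in CTRL cells at 0 h and 363, 358 and 362 CPM at 48 h, and 350.3, 355 and 351 CPM in inducible cells at 0 h and 156, 149.6 and 156 CPM at 48 h. The fall in inducible cells exceeded that in CTRL cells without overlap between the times in either line, and the interaction was -0.92 (SE 0.044, adjusted p = 6.58e-11). DOCK11, an exchange factor for Cdc42, fell in inducible cells (log2 -0.69) and rose in CTRL cells (0.17), for an interaction of -0.86 (SE 0.049, adjusted p = 1.00e-09). AXL completes these 6 genes and is described with the motility genes. All 6 kept their calls in every fit without 1 library.

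Among the 12 largest lower interactions, all 12 had risen in CTRL cells and only CENPT had changed past the FDR in inducible cells. ENOX1, a cell surface oxidoreductase gene, counted 1, 1 and 0 reads in CTRL cells at 0 h and 44, 41 and 41 reads at 48 h, and 54, 62 and 54 reads in inducible cells at 0 h and 41, 64 and 47 reads at 48 h. CTRL cells started at the floor and were at least 13.4-fold higher at 48 h, where they reached 2.19, 2.41 and 2.16 CPM and overlapped the inducible libraries at 48 h but not those at 0 h, and the fitted interaction was -5.85 (SE 0.46, adjusted p = 8.19e-08). CREB3L3, a membrane-bound transcription factor of liver and intestine, counted 2, 2 and 2 reads in CTRL cells at 0 h and 104, 56 and 64 reads at 48 h, and 44, 53 and 31 reads in inducible cells at 0 h and 55, 70 and 47 reads at 48 h. CTRL cells went from the floor to 5.18, 3.29 and 3.37 CPM, above every inducible library at either time on that scale and at least 23.5-fold higher than at 0 h, with an interaction of -4.65 (SE 0.44, adjusted p = 8.77e-07).

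BTK, the Bruton tyrosine kinase of B lymphocytes, counted 0, 1 and 1 reads in CTRL cells at 0 h and 56, 29 and 46 reads at 48 h, and 1, 3 and 2 reads in inducible cells at 0 h and 2, 3 and 2 reads at 48 h. Here the CTRL libraries at 48 h were alone, at least 13.7-fold higher than at 0 h, and every inducible library held 1 to 3 reads, for an interaction of -5.52 (SE 1.04, adjusted p = 0.00156). The lymphoid markers PTPRC and CD3E were at the floor in these libraries too, while the summed level of 5 immune markers was 2.19 to 18.8 CPM in CTRL cells at 48 h and at most 6.88 CPM in the other groups. The part of that level in the result was not tested. The call for BTK was lost without inducible 0 h replicate 2, at -5.22 (adjusted p = 0.0202). HID1, a gene of dense core vesicle formation, had 0.726, 0.899 and 0.887 CPM in CTRL cells at 0 h and 6.93, 6.52 and 4.69 CPM at 48 h, and 0.535, 0.55 and 0.339 CPM in inducible cells at 0 h and 0.619, 0.43 and 0.348 CPM at 48 h. It rose 7.17-fold in CTRL cells and gave -2.89 (SE 0.46, adjusted p = 0.000283).

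The other 6 were ITPKB (-4.08), GPD1 (-3.55), C1orf220 (-2.44), PHOSPHO1 (-2.42), TRANK1 (-2.03) and NRG2 (-1.94). In CTRL cells ITPKB was at the floor at 0 h and at least 6.62-fold higher at 48 h. ITPKB and GPD1 encode an inositol phosphate kinase and the cytosolic glycerol-3-phosphate dehydrogenase, and PHOSPHO1 a phosphatase of bone mineralisation. Their levels in the highest group stayed under 4 CPM. PHOSPHO1 kept its call in every fit without 1 library, GPD1 in 11, C1orf220 and TRANK1 in 6 each, ITPKB in 4 and NRG2 in 2. C1orf220 shares exons with TEX35.

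The 7 motility genes that the study followed up all had lower interactions, with a median of -0.94. They were selected by the study from libraries of this series, so the count is not independent evidence of their direction. MYPN, which encodes the actin-associated protein myopalladin, was measured at 54.2, 57.4 and 58 CPM in CTRL cells at 0 h and 65.1, 64.8 and 64.7 CPM at 48 h, and 105, 107 and 118 CPM in inducible cells at 0 h and 52.7, 44.4 and 49.6 CPM at 48 h. Inducible cells fell to 0.443 of their 0 h level without overlap, CTRL cells had an estimate of 0.20 (adjusted p = 0.011), and the interaction was -1.37 (SE 0.084, adjusted p = 2.83e-09). GSN, the gene of the actin-severing protein gelsolin, had 154, 153 and 147 CPM in CTRL cells at 0 h and 192, 157 and 181 CPM at 48 h, and 51.7, 49.5 and 50.6 CPM in inducible cells at 0 h and 28.9, 29 and 29.1 CPM at 48 h. It fell in inducible cells (log2 -0.80) and rose in CTRL cells (0.22), and the interaction was -1.02 (SE 0.084, adjusted p = 1.26e-07).

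AXL, a receptor tyrosine kinase, stood at 158, 149.9 and 154 CPM in CTRL cells at 0 h and 130.2, 136 and 131 CPM at 48 h, and 235, 248 and 235 CPM in inducible cells at 0 h and 108, 104 and 109.7 CPM at 48 h. Inducible cells went from the highest to the lowest of the 4 groups, and the interaction was -0.94 (SE 0.056, adjusted p = 1.83e-09). EGFR, the epidermal growth factor receptor, had 169, 176 and 172 CPM in CTRL cells at 0 h and 163, 164 and 162 CPM at 48 h, and 254, 258 and 253 CPM in inducible cells at 0 h and 119, 135 and 156 CPM at 48 h. It fell in inducible cells (log2 -0.90), with the 3 libraries at 48 h more spread than those at 0 h. In CTRL cells the estimate was -0.077 (adjusted p = 0.324), and the interaction was -0.83 (SE 0.086, adjusted p = 2.39e-06).

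ITGB4, the integrin beta chain of hemidesmosomes, was at 114, 112 and 111 CPM in CTRL cells at 0 h and 157, 129 and 130.4 CPM at 48 h, and 50.9, 50.7 and 48.8 CPM in inducible cells at 0 h and 32.4, 29.5 and 34 CPM at 48 h. It moved in opposite directions in the lines and had an interaction of -0.96 (SE 0.095, adjusted p = 1.30e-06). NET1, a guanine nucleotide exchange factor, fell in both lines (-0.73 in inducible and -0.12 in CTRL cells), for -0.61 (SE 0.050, adjusted p = 1.11e-07). ETS1, a transcription factor, also fell in both (-0.74 and -0.41) and had the smallest interaction of the 7, -0.33 (SE 0.060, adjusted p = 0.00115). All 7 calls held in every fit without 1 library and without both CTRL libraries that stood apart. EGFR, GSN and AXL each overlap an antisense gene.

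Genes were then grouped by known function into lists, the motility genes among them. Each list is described by its calls and its median, to be read beside the 5.54% of all genes called and their median of -0.010. Lists and members were chosen with earlier results of these data known. A share above that of all genes is therefore a description and not a test of the list. Counts within a line stand beside the shares of all genes tested. Of these, 14.6% rose and 15.3% fell in inducible cells, and 17.7% rose and 16.8% fell in CTRL cells. Of the 165 called genes in the lists, 131 kept their calls in all 12 fits without 1 library and 149 without both CTRL libraries that stood apart. Calls kept in 6 or fewer of the 12 fits belonged to 22 genes. Those of CEBPG, ITGA5 and SLC16A3 held in 1 fit, of CDC25B, NRG2, PLAUR and SEMA4D in 2, and of DHX58, EPRS1, IL6ST, MT1E, MYH10, PDK1 and SEMA3C in 3. For ASAP1, BNIP3L and NRP1 they held in 4, for ABCA1, CHAF1B and SPRED3 in 5 and for IFITM2 in 6. Without both CTRL libraries the calls for ITGA5, CDC25B, NRG2, DHX58, MT1E, PDK1, NRP1, ABCA1, SPRED3, IFITM2, IFI6, CLDN1, DMKN, C3 and CXCL2 were among those lost.

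**Figure D3:**
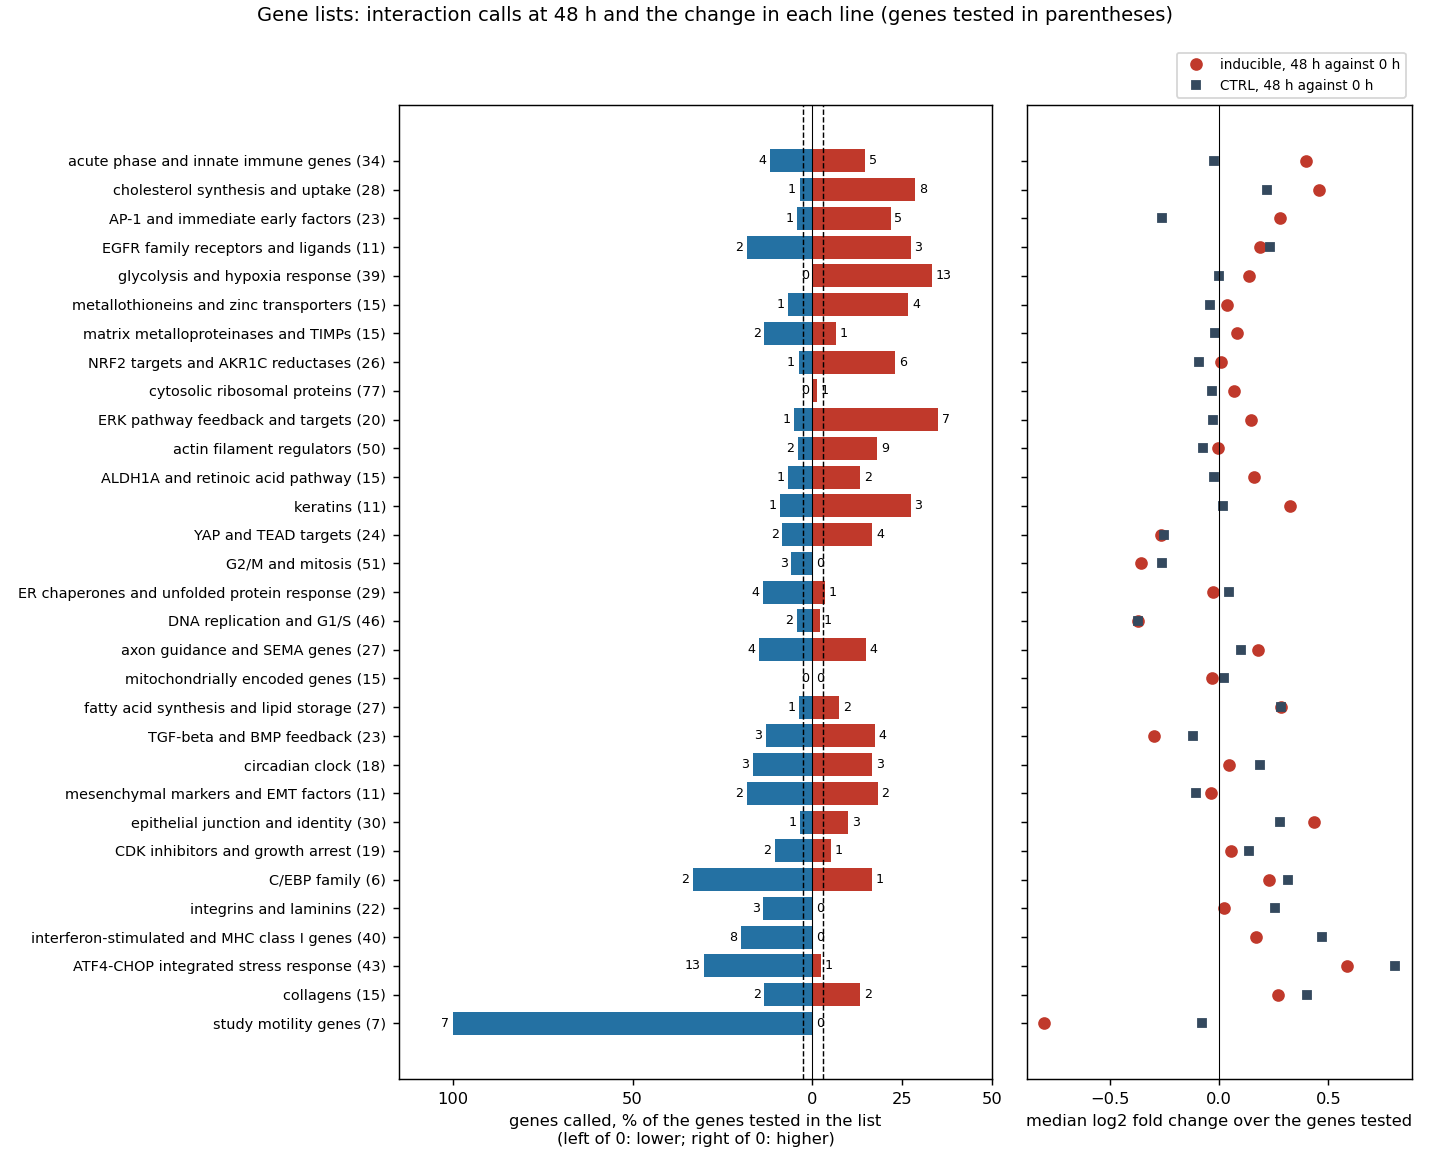
Left, for the lists described here, the share of tested genes called for the interaction at 48 h, lower to the left and higher to the right, with counts beside the bars and dashed lines at 2.72% and 2.83%, the shares over all genes. Right, the median log2 fold change between 0 and 48 h over the same genes in inducible (red circles) and CTRL cells (dark blue squares); glycolysis and hypoxia genes have 13 higher and 0 lower calls, and stress response genes 1 higher and 13 lower.

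Glycolysis and hypoxia genes had 13 higher and 0 lower interactions among 39 tested, with a median of 0.17. The list includes SLC2A3, given above. ADM, which encodes the vasodilator peptide adrenomedullin, had 6.09, 5.7 and 5.69 CPM in CTRL cells at 0 h and 3.04, 2.76 and 2.95 CPM at 48 h, and 9.16, 11.5 and 10.6 CPM in inducible cells at 0 h and 12.5, 11.1 and 10.8 CPM at 48 h. CTRL cells fell without overlap, inducible cells had an estimate of 0.14 (adjusted p = 0.261), and the interaction was 1.13 (SE 0.16, adjusted p = 9.51e-05). PFKFB4, a regulator of glycolytic flux, rose in both lines, 1.28 in inducible and 0.54 in CTRL cells, with an interaction of 0.74 (SE 0.16, adjusted p = 0.00449). BNIP3L, a mitophagy receptor, followed at 0.61 (SE 0.14, adjusted p = 0.00727), a call kept in 4 of 12 fits without 1 library. PGK1, a glycolytic enzyme, rose in inducible cells (0.52), and PDK1, P4HA1 and SLC16A3 had interactions of 0.53, 0.42 and 0.35. The enzyme genes HK2, ALDOA, ENO1 and TPI1 and the glucose transporter gene SLC2A1 fell in CTRL cells (-0.58, -0.32, -0.42, -0.26 and -0.42), and of these HK2 alone fell past the FDR in inducible cells (-0.20). The whole list counted 9 to 14 calls in the fits without 1 library and 8 in the analysis of variance on log2(CPM + 1).

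The integrated stress response, in which ATF4 and CHOP raise genes of amino acid supply and tRNA charging, had 13 lower and 1 higher interaction among 43 genes. Its genes rose in both lines, 35 of 43 in each, and the median change was 0.59 in inducible and 0.80 in CTRL cells. The median interaction was -0.21, or -0.12 with group means raised to the counting floor. SLC7A11, the cystine transporter, was read at 11.9, 11.3 and 11.4 CPM in CTRL cells at 0 h and 37.3, 47.2 and 47.9 CPM at 48 h, and 52.8, 50.3 and 51.8 CPM in inducible cells at 0 h and 89.5, 96.5 and 93.3 CPM at 48 h. It rose without overlap in both lines, 3.81-fold in CTRL and 1.8-fold in inducible cells, and the interaction was -1.08 (SE 0.11, adjusted p = 2.07e-06).

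CHAC1, a glutathione-degrading enzyme whose promoter window is printed above, had 2.35, 1.98 and 2.71 CPM in CTRL cells at 0 h and 9.72, 10.6 and 11.7 CPM at 48 h, and 7.17, 7.66 and 6.77 CPM in inducible cells at 0 h and 19.9, 16.9 and 16.5 CPM at 48 h. It rose without overlap in both lines, and its interaction was -0.88 (SE 0.18, adjusted p = 0.00282). ASNS, asparagine synthetase, rose by 1.06 in inducible and 1.56 in CTRL cells and gave -0.50 (SE 0.076, adjusted p = 0.000172). CEBPB and CEBPG, which belong to this list, were given above. The tRNA synthetase genes AARS1, TARS1, SARS1, GARS1, MARS1, YARS1 and EPRS1 had interactions between -0.41 and -0.21, and PHGDH, of serine synthesis, -0.42. TRIB3, a pseudokinase that restrains the same response, was measured at 16.2, 16.8 and 18.7 CPM in CTRL cells at 0 h and 47.1, 41.9 and 47.1 CPM at 48 h, and 16.3, 17.9 and 16.1 CPM in inducible cells at 0 h and 71.9, 69.6 and 70.5 CPM at 48 h. It rose in both lines, more in inducible cells, and was the 1 higher gene at 0.68 (SE 0.10, adjusted p = 9.51e-05). SLC7A11 and CEBPB each overlap an antisense gene.

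**Figure D4:**
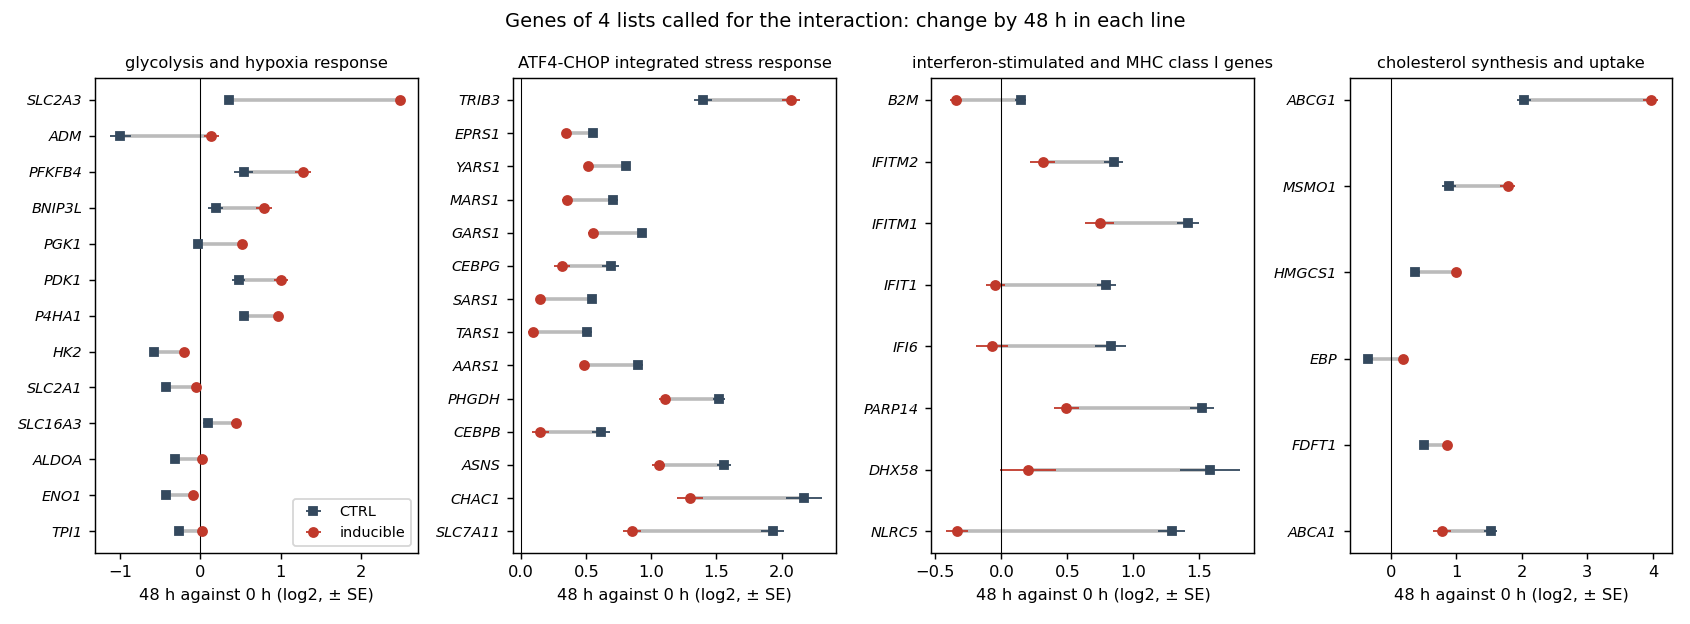
Log2 fold change between 0 and 48 h, with its standard error, in CTRL cells (dark blue squares) and inducible cells (red circles) for genes of 4 lists that had an interaction and are described here. Stress response genes lie to the right of 0 in both lines with CTRL cells ahead for all but TRIB3. For interferon genes CTRL cells are ahead for all 8, and NLRC5 lies to the left of 0 in inducible cells.

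Cholesterol synthesis and uptake genes had 8 higher and 1 lower interaction among 28 tested, with a median of 0.23. In inducible cells 20 of the 28 rose and 0 fell, and in CTRL cells 14 rose and 3 fell. ABCG1, a sterol exporter, was at 2.62, 2.7 and 3.03 CPM in CTRL cells at 0 h and 11.9, 10.6 and 11.8 CPM at 48 h, and 1.28, 1.56 and 1.47 CPM in inducible cells at 0 h and 21.2, 23.1 and 23.4 CPM at 48 h. Both lines rose without overlap, 15.6-fold in inducible and 4.09-fold in CTRL cells, and the interaction was 1.93 (SE 0.18, adjusted p = 5.08e-07). The related exporter gene ABCA1 had 6.81, 5.94 and 6.78 CPM in CTRL cells at 0 h and 20.1, 18.1 and 17.9 CPM at 48 h, and 2.78, 3.12 and 2.71 CPM in inducible cells at 0 h and 4.27, 5.33 and 5.21 CPM at 48 h. It rose in both lines too, but more in CTRL cells, for -0.74 (SE 0.17, adjusted p = 0.00643). The synthesis genes MSMO1 and HMGCS1 had interactions of 0.89 and 0.61, and EBP and FDFT1 of 0.52 and 0.35. Of 27 fatty acid genes, SCD and ACACA were higher (0.41 and 0.35) and PLIN3 lower (-0.35), while 15 rose in inducible and 16 in CTRL cells.

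Of 26 NRF2 targets and AKR1C reductases, 6 were higher and 1 lower. ABCC3, an organic anion exporter, was measured at 3.3, 3.12 and 3.44 CPM in CTRL cells at 0 h and 2.74, 3.87 and 3.16 CPM at 48 h, and 3.64, 3.76 and 3.78 CPM in inducible cells at 0 h and 15.4, 12.3 and 11.4 CPM at 48 h. It rose past the FDR in inducible cells alone, and its interaction was 1.82 (SE 0.21, adjusted p = 1.08e-05). The pentose phosphate enzyme gene PGD and the ferritin genes FTH1 and FTL followed at 0.60, 0.55 and 0.44, and AKR1C1 and NQO1 at 0.53 and 0.22. SLC7A11, counted in the stress list, was the lower one. Of 15 metallothionein and zinc transporter genes, MT1G (0.82), MT2A (0.54), MT1X (0.40) and MT1E (0.29) were higher and SLC39A8 (-0.64) was lower. Their count was 3 in 4 of the 12 fits without 1 library and 7 in another. Metallothionein genes are near-identical copies, so their reads could be split between them. FTH1 overlaps BEST1 on the other strand.

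Interferon-stimulated and MHC class I genes had 8 lower and 0 higher interactions among 40. In CTRL cells 19 rose and 1 fell, and in inducible cells 7 rose and 3 fell. NLRC5, the activator of MHC class I genes, had 3.8, 3.3 and 3.23 CPM in CTRL cells at 0 h and 8.07, 8.75 and 8.49 CPM at 48 h, and 11.4, 11.6 and 10.7 CPM in inducible cells at 0 h and 8.94, 9.07 and 8.69 CPM at 48 h. CTRL cells rose 2.44-fold while inducible cells fell, and the interaction was -1.63 (SE 0.13, adjusted p = 1.15e-07). PARP14 rose in both lines, 1.52 in CTRL and 0.49 in inducible cells, for -1.03 (SE 0.13, adjusted p = 2.91e-05). DHX58, a cytoplasmic RNA sensor, and IFI6 had interactions of -1.38 and -0.90, and IFIT1, IFITM1, IFITM2 and B2M of -0.84, -0.67, -0.54 and -0.49. The count was 5 without both CTRL libraries that stood apart, without inducible 0 h replicate 2, without inducible 48 h replicate 1 or without CTRL 0 h replicate 3. NLRC5 and PARP14 kept their calls in every fit without 1 library. IFITM1 and IFITM2 belong to a gene family of related sequence, so reads could be split between its members.

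Acute phase and innate immune genes, for which C/EBPδ is best known, divided into 5 higher and 4 lower interactions among 34, with a median of 0.26. IL6R, a cytokine receptor chain, was at 5.47, 5.46 and 5.89 CPM in CTRL cells at 0 h and 1.94, 2.52 and 2.48 CPM at 48 h, and 6.69, 5.55 and 5.36 CPM in inducible cells at 0 h and 7.87, 8.0 and 7.82 CPM at 48 h. It fell in CTRL cells and rose in inducible cells, for an interaction of 1.71 (SE 0.18, adjusted p = 1.96e-06). CXCL2, a neutrophil chemokine, had 0.95 (SE 0.18, adjusted p = 0.00168), or 0.83 (adjusted p = 0.0101) without CTRL 0 h replicate 3, and CXCL8, another, fell past the FDR in CTRL cells alone (-0.71) and had 0.76 (SE 0.083, adjusted p = 3.93e-06). NFKBIA, the inhibitor that ends NF-κB signalling, was higher at 0.69 (SE 0.062, adjusted p = 3.92e-07).

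The lower genes were TLR5, the flagellin receptor, and 3 members of the signalling chain of interleukin receptors. TLR5 stood at 3.63, 3.18 and 3.03 CPM in CTRL cells at 0 h and 2.74, 2.35 and 2.37 CPM at 48 h, and 8.14, 7.93 and 7.96 CPM in inducible cells at 0 h and 1.8, 2.28 and 1.91 CPM at 48 h. It fell to 0.253 of its 0 h level in inducible cells without overlap and gave -1.59 (SE 0.20, adjusted p = 2.05e-05). STAT3, the transcription factor of that chain, was at 473, 499.6 and 495 CPM in CTRL cells at 0 h and 491, 459.9 and 472 CPM at 48 h, and 367, 384 and 379 CPM in inducible cells at 0 h and 227, 212 and 225 CPM at 48 h. Inducible cells fell without overlap, CTRL cells did not change past the FDR (adjusted p = 0.331), and the interaction was -0.72 (SE 0.052, adjusted p = 3.10e-08). SOCS3, its feedback inhibitor, had -0.93 (SE 0.13, adjusted p = 6.84e-05), and the receptor chain gene IL6ST -0.37 (SE 0.082, adjusted p = 0.00636), a call kept in 3 of 12 fits without 1 library.

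Of 11 EGFR family receptors and ligands, 3 were higher and 2 lower. The lower genes were EGFR itself and the ligand gene NRG2, both given above. The ligand genes EREG and AREG were higher, at 0.69 (SE 0.10, adjusted p = 8.46e-05) and 0.51 (SE 0.074, adjusted p = 0.000115), as was the inhibitor gene ERRFI1 at 0.32 (SE 0.037, adjusted p = 9.06e-06). AREG was read at 72.2, 71.6 and 71.8 CPM in CTRL cells at 0 h and 84.1, 93.2 and 92.8 CPM at 48 h, and 23.8, 25.4 and 25.1 CPM in inducible cells at 0 h and 43.6, 46.2 and 42.8 CPM at 48 h. It rose in both lines without overlap. Of 20 feedback and target genes of ERK, the kinase downstream, 7 were higher and 1 lower. IER3, an early survival gene, was at 11.1, 10.9 and 9.96 CPM in CTRL cells at 0 h and 12.6, 12.8 and 13 CPM at 48 h, and 9.64, 10.8 and 9.88 CPM in inducible cells at 0 h and 31.9, 32.6 and 28.8 CPM at 48 h. It rose 3.08-fold in inducible cells and had 1.36 (SE 0.11, adjusted p = 1.66e-07). EGR1, DUSP6 and MYC followed with 1.24, 0.87 and 0.50, where MYC fell in CTRL cells (-0.50) and had an estimate of 0.0036 in inducible cells. CCND1, ETV4 and SPRY1 were also higher, and SPRED3 was lower at -0.96. Of 23 AP-1 and immediate early genes, 5 were higher, EGR1 and IER3 among them with JUNB (0.78), FOSL2 (0.54) and IER2 (0.39), and KLF4 was lower (-0.42).

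Actin filament genes had 9 higher and 2 lower interactions among 50, and the 2 lower ones were MYPN and GSN. TAGLN, an actin-bundling protein of smooth muscle, was at 9.72, 9.89 and 11.1 CPM in CTRL cells at 0 h and 4.38, 4.64 and 3.64 CPM at 48 h, and 14.7, 15.4 and 17.3 CPM in inducible cells at 0 h and 16.9, 14.9 and 15.5 CPM at 48 h. CTRL cells fell to 0.411 of their 0 h level and inducible cells did not change past the FDR (adjusted p = 0.968), for an interaction of 1.28 (SE 0.14, adjusted p = 6.46e-06). LIMA1 (0.55), MYL9 (0.51) and TPM4 (0.48) followed, and VCL, CNN2, ACTN1, PFN1 and MYH10 lay between 0.22 and 0.46. In this list 22 genes fell in CTRL cells and 16 in inducible cells, and 8 and 9 rose. TAGLN overlaps PCSK7 on the other strand.

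Integrins and laminins had 0 higher and 3 lower interactions among 22, those of ITGB4, ITGA5 (-0.38) and ITGA6 (-0.37), and the call for ITGA5 held in 1 of 12 fits without 1 library. Epithelial genes had 3 higher and 1 lower among 30. CLDN1, a tight junction protein, was at 7.26, 6.83 and 7.41 CPM in CTRL cells at 0 h and 5.88, 7.1 and 7.8 CPM at 48 h, and 94.6, 106 and 97.4 CPM in inducible cells at 0 h and 149, 155 and 171 CPM at 48 h. It was far higher in inducible cells at both times and rose there, for 0.73 (SE 0.13, adjusted p = 0.00104). CLDN4, another, was lower at -1.20 (SE 0.14, adjusted p = 1.08e-05). The other higher genes of that list were CDH1 and DMKN. Keratins added KRT80 (0.32), which fell in both lines, to KRT17 and KRT81, and KRT8, which fell in both, was lower (-0.46). Of 11 mesenchymal genes 2 were higher, TAGLN among them, and 2 were lower, ITGA5 and S100A4 (-0.38). Of 15 collagen genes COL6A3 and COL5A2 (0.39) were higher and COL17A1 (-0.51) and COL1A2 (-0.32) lower. KRT8 overlaps KRT18 on the other strand.

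Of 46 replication genes, 36 fell in inducible and 38 in CTRL cells, and 1 had a higher and 2 a lower interaction. These interaction calls were 6.52% of the list, near the 5.54% of all genes called. RRM2, a subunit of ribonucleotide reductase, was the higher one at 0.40 (SE 0.051, adjusted p = 2.53e-05), and fell in both lines. GINS4 and CHAF1B were the lower ones (-0.33 and -0.33). Of 51 mitotic genes 42 fell in inducible and 38 in CTRL cells, and 3 had lower interactions, CENPT, NEK2 (-0.35) and CDC25B (-0.26). The mitotic calls were 5.88% of their list, also near the share of all genes. That mitotic count was 8 without CTRL 48 h replicate 1. CDKN1A, the cell cycle inhibitor p21, was at 5.36, 4.92 and 4.96 CPM in CTRL cells at 0 h and 4.63, 4.93 and 5.69 CPM at 48 h, and 13.8, 14.9 and 14.1 CPM in inducible cells at 0 h and 30.6, 29.97 and 29.6 CPM at 48 h. It rose 2.1-fold in inducible cells, with no change past the FDR in CTRL cells (adjusted p = 0.996), for an interaction of 1.07 (SE 0.13, adjusted p = 1.32e-05). The inhibitor gene CDKN2C and the damage response gene GADD45A were lower, at -0.53 (SE 0.094, adjusted p = 0.000887) and -1.28 (SE 0.11, adjusted p = 1.49e-07), among 19 growth arrest genes.

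The 18 clock genes gave 3 higher and 3 lower interactions. NFIL3, a repressor of clock output, was at 9.05, 9.71 and 8.61 CPM in CTRL cells at 0 h and 8.77, 10.2 and 9.28 CPM at 48 h, and 9.0, 8.07 and 9.43 CPM in inducible cells at 0 h and 19.8, 18.7 and 19.8 CPM at 48 h. The 3 inducible libraries at 48 h stood above all others, which overlapped, and the interaction was 1.10 (SE 0.12, adjusted p = 6.89e-06). NPAS2 and BHLHE40 were higher (0.85 and 0.82), and NR1D2, TEF and PER3 lower (-0.80, -0.77 and -0.64). Of 23 genes of TGF-β and BMP feedback, ID1, ID2, ID3 and SMURF2 were higher (0.70, 0.99, 0.79 and 0.45) and TGFB3, LTBP2 and TGFBR3 lower (-1.21, -0.54 and -0.44). CCN1, LATS2, AMOTL2 and ASAP1 were higher and AXL and MYOF lower among 24 YAP and TEAD targets, with CCN1 at 0.77 (SE 0.059, adjusted p = 6.46e-08) after falling in both lines.

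Axon guidance genes, many of which also steer cell migration, had 4 higher and 4 lower interactions among 27. UNC5B, a netrin receptor, was at 4.08, 3.84 and 4.8 CPM in CTRL cells at 0 h and 6.88, 6.11 and 5.32 CPM at 48 h, and 18.4, 18.2 and 17.4 CPM in inducible cells at 0 h and 67.4, 68 and 63 CPM at 48 h. It rose in both lines, 3.67-fold in inducible cells, with an interaction of 1.35 (SE 0.14, adjusted p = 2.63e-06). SEMA6B (0.79), PLXNA1 (0.76) and SEMA3C (0.27) were higher, and NRP1 (-0.60), SEMA4B (-0.59), SEMA3A (-0.44) and SEMA4D (-0.43) lower. The count was 5 in 7 of the 12 fits without 1 library.

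Among the smallest lists, retinoic acid genes had TGM2 and STRA6 (0.90) higher and ALDH1A1 (-1.67) lower of 15. Matrix metalloproteinase genes had PLAUR (0.35) higher and MMP1 (-1.0) and TIMP2 (-0.25) lower of 15. In inducible cells ALDH1A1 and MMP1 were at trace levels, at most 0.326% and 0.588% of the mean CTRL level at 0 h and 0.0725% and 0.247% at 48 h. Both calls were lost in the analysis of variance on log2(CPM + 1) (adjusted p = 0.0881 and 0.0239). Of 29 genes of ER folding, HSPA5 was higher (0.33), and CREB3L3, CREB3L1 (-0.87), SEC24D (-0.57) and CALR (-0.21) were lower. Of 77 cytosolic ribosomal protein genes 1 was called, RPS12 (0.24), although 73 estimates were above 0 and their median was 0.11. DESeq2 called 10 of them. Of 15 mitochondrially encoded genes edgeR's test and DESeq2 each called 0, and 3 had an unadjusted p under 0.05.

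To see whether the interaction changed between 24 and 48 h, a fit of all 24 libraries was used, in which the 0 h libraries cancel. The value tested was the interaction at 48 h minus that at 24 h. This difference was past the FDR for 243 of 17023 genes (1.43%), 159 higher and 84 lower. The interactions at 8, 24 and 48 h share their 0 h libraries and are given side by side. For CEBPD they were 4.57, 3.98 and 3.22, and the difference was -0.76 (SE 0.16, adjusted p = 0.0055). SLC2A3 and PRND did not differ past the FDR between 24 and 48 h, with 2.08 and 2.14 for SLC2A3 (adjusted p = 0.607) and 2.68 and 2.69 for PRND (adjusted p = 0.97). At 8 h they stood at 0.93 and 0.24. TGM2, SIPA1L2 and COL6A3 gained between 24 and 48 h, by 0.54, 0.49 and 0.42, and CENPT went further down (-0.59).

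Of the 7 motility genes, MYPN went further down between 24 and 48 h, with -0.41 (SE 0.077, adjusted p = 0.00205). For the other 6 the difference had adjusted p values from 0.0724 to 0.977. At 8 h the estimates were -0.87 for GSN, -0.50 for MYPN, and between -0.28 and 0.022 for the rest.

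**Figure D5:**
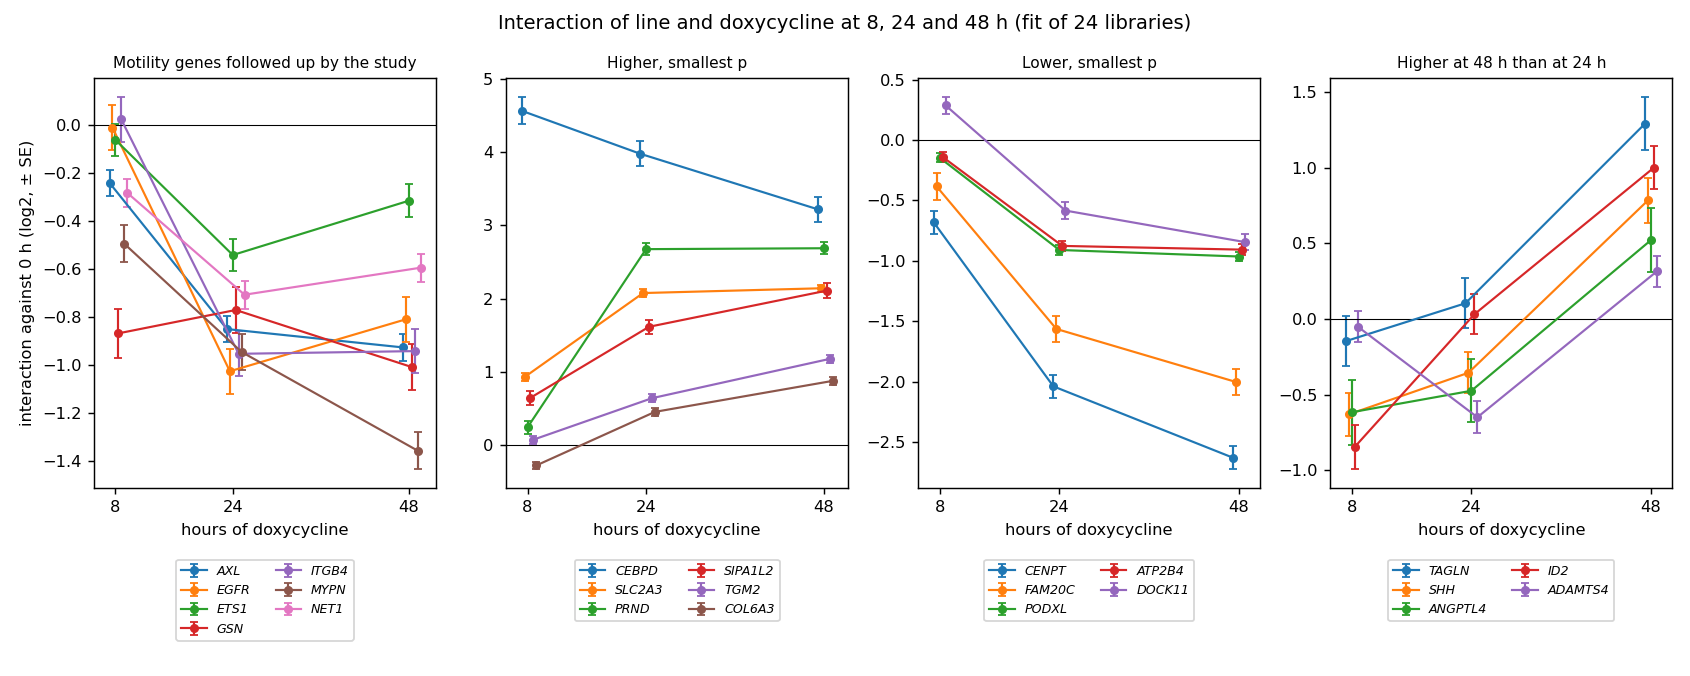
Interaction of line and doxycycline against 0 h (log2, points, with the standard error as bars) after 8, 24 and 48 h in the fit of 24 libraries, for the motility genes, the higher and lower genes with the smallest p, and the genes named for a higher value at 48 h than at 24 h. CEBPD declines from 4.57 to 3.22. SLC2A3 and PRND do not differ past the FDR between 24 and 48 h, and TAGLN, SHH, ANGPTL4, ID2 and ADAMTS4 go up between these times.

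The genes with the largest rise of the interaction after 24 h were TAGLN, SHH, ANGPTL4, ID2 and ADAMTS4, with 1 more that has no symbol. TAGLN, described above, went from 0.10 to 1.29, a difference of 1.19 (SE 0.18, adjusted p = 0.000217). SHH, the ligand Sonic hedgehog, had 16.1, 13.5 and 18.2 CPM in CTRL cells at 0 h and 5.93, 6.05 and 5.75 CPM at 48 h, and 36.8, 40.9 and 35.2 CPM in inducible cells at 0 h and 24.2, 24 and 22.9 CPM at 48 h. It fell in both lines and more in CTRL cells, and the difference between 48 and 24 h was 1.14 (SE 0.15, adjusted p = 3.62e-05). Its interaction went from -0.36 (SE 0.14) at 24 h to 0.78 at 48 h. ID2, an inhibitor of helix-loop-helix factors, went from 0.032 to 1.0, with 0.97 (SE 0.14, adjusted p = 0.000154). Its mean in inducible cells was 36.9 CPM at 0 h, 29.8 CPM at 24 h and 29.9 CPM at 48 h. In CTRL cells the ID2 mean fell from 27.4 CPM at 0 h to 21.7 CPM at 24 h and 11.1 CPM at 48 h. ANGPTL4, a lipoprotein lipase inhibitor, and ADAMTS4, an aggrecan protease, differed by 1.0 (SE 0.21, adjusted p = 0.00706) and 0.97 (SE 0.10, adjusted p = 2.23e-06), although neither had an interaction past the FDR at 48 h itself (adjusted p = 0.138 and 0.113). Their interactions at 24 h were below 0, at -0.47 (SE 0.21) and -0.65 (SE 0.11), and at 48 h they were 0.52 and 0.32. Mean ADAMTS4 in inducible cells was 27.2 CPM at 8 h, 12.8 CPM at 24 h and 26.1 CPM at 48 h. ID2 overlaps ID2-AS1 on the other strand.

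The largest declines after 24 h were those of BTK, ALDH1A1, TRANK1, MMP1, CREB3L3 and ALPK2. For BTK and CREB3L3 the differences were -4.15 (SE 0.82, adjusted p = 0.00372) and -1.68 (SE 0.37, adjusted p = 0.00904). TRANK1 had 0.726, 0.18 and 0.835 CPM in CTRL cells at 0 h and 3.49, 2.35 and 2.9 CPM at 48 h, and 1.02, 1.15 and 1.3 CPM in inducible cells at 0 h and 1.29, 1.59 and 1.22 CPM at 48 h. It was highest in CTRL cells at 48 h, and its difference was -2.33 (SE 0.46, adjusted p = 0.00395). ALPK2, an atypical kinase, rose past the FDR in CTRL cells alone, from 0.335, 0.24 and 0.365 to 1.2, 0.881 and 1.21 CPM, and differed by -1.50 (SE 0.32, adjusted p = 0.00684). ALDH1A1, a retinal dehydrogenase, and MMP1, a collagenase, had -2.64 and -1.70. In inducible cells they were read at 0.0432% to 0.659% and at 0.218% to 1.13% of the mean CTRL level. ALDH1A1 in inducible cells at 24 h counted 32, 145 and 265 reads. The part of these low levels in the differences was not tested.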

How the data were processed

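Gene counts as deposited were analysed. Per the labels and the study's methods, the authors trimmed 50 bp reads of rRNA-depleted total RNA, aligned them to GRCh38 and counted them per gene with HTSeq. The labels and the methods give different aligner versions, and the strand setting of the counting is not given in the sources used here. The raw counts had 60675 gene IDs, of which 56558 matched GENCODE v44 for coordinates and exon overlaps. Here, 12 libraries (2 lines, 0 and 48 h, n = 3) were fitted with 1 mean per group in edgeR 4.0.16 (R 4.3.3, TMM, filterByExpr, quasi-likelihood test, Benjamini-Hochberg adjustment, FDR 0.01). A fit of all 24 libraries gave the difference between 48 and 24 h. Genes with at most 3 counts in every library of a group were treated as at the floor, which covers counting error only, and folds against them are bounds.

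Named genes were the 12 largest called interactions in each direction, the 6 with the smallest p among genes above 1 CPM, the 6 largest called differences between 48 and 24 h, the motility genes and up to 4 called genes per list and direction. Members, lists and tests were chosen with earlier results of these data known. The study's methods describe cells seeded in triplicate in wells of a plate, and the labels do not say whether replicates came from separate cultures. The p values therefore measure the spread between these samples, which may be that between wells. Code was tested on simulated counts with 200 changed genes. Alternatives were DESeq2 1.42.0, other scalings and filters, an analysis of variance with limma 3.58.1 on log2(CPM + 1), a replicate block, a model of 24 libraries, FDR 0.05 and leaving out each library. Promoter windows came from RefSeq. A few items are not reported here.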

Additional observations from a re-analysis of the deposited data

Results flagged for a closer look

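The change by 48 h differed between the lines for 904 genes by the test of that difference, and 93 of them moved past the FDR in opposite directions. Between 24 and 48 h the interaction itself differed for 243 genes by its own test. Those named for the largest of these differences on the log2 scale were TAGLN (1.19), SHH (1.14), ANGPTL4 (1.0), ID2 (0.97) and ADAMTS4 (0.97) among the higher, and BTK (-4.15), ALDH1A1 (-2.64), TRANK1 (-2.33), MMP1 (-1.70), CREB3L3 (-1.68) and ALPK2 (-1.50) among the lower.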

How the results depend on the processing

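The count of 904 interactions was 900 with DESeq2 (790 of them shared), 900 with RLE size factors (866 shared), 900 with total counts (838 shared, 395 higher and 505 lower), 920 with at least 10 counts in every library, 1185 with no filter on low counts, 1006 in the model of 24 libraries, 611 by the analysis of variance and 1666 at FDR 0.05. It ran from 625 to 1179 when 1 library was left out. The main fit had 461 higher and 443 lower calls. DESeq2 gave 525 and 375, RLE size factors 495 and 405, and the model of 24 libraries 552 and 454. With at least 10 counts in every library the split was 537 and 383. Without CTRL 0 h replicate 3 and CTRL 48 h replicate 1, an alternative chosen after seeing the data, 901 genes were called, 738 of them among the 904. Of the 904 genes, 903 kept their sign in all 12 fits without 1 library, and 521 were called in all 12.

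The difference between 48 and 24 h was less stable. Its 243 calls became 424 with no filter, 510 at FDR 0.05 and 343 with DESeq2, and 133 to 287 without 1 library, with 155 and 141 without inducible 24 h replicates 2 and 3, 133 and 158 without inducible 48 h replicates 1 and 3, and 147, 135 and 154 without CTRL 24 h replicates 1, 2 and 3. The split of the 243 calls into 159 higher and 84 lower also moved with the setting. It was 121 and 104 with at least 10 counts in every library, and 73 and 68 without inducible 24 h replicate 3. DESeq2 gave 242 and 101, and no filter on low counts gave 321 and 103. Counts within lines ranged from 3735 to 5614 in inducible and from 4542 to 5794 in CTRL cells, and the CEBPD interaction from 3.07 to 3.29.

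In the 12 libraries same-numbered replicates did not pair, with correlations of their deviations from -0.13 to 0.10, the own number giving the better correlation in 8 of 18 cases. In the 24 libraries the range was -0.14 to 0.39. All 3 correlations exceeded 0.1 in 2 of 28 pairs of groups, CTRL 0 h with 24 h and CTRL 8 h with 48 h, and in no pair of a 24 h with a 48 h group. A fit with the replicate block gave 774 interactions, 247 differences between 48 and 24 h, 4696 changes in inducible and 5421 in CTRL cells, and a CEBPD interaction of 3.21.

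Among named genes and the listed differences no direction was reversed under any alternative, 3127 values kept their side of the threshold and 379 lost it, 289 of them without 1 library and 49 in the analysis of variance. Depth limits the genes with few reads, whose folds are bounds or depend on single libraries, and 3 libraries a group limit all tests: an exact permutation test of 3 against 3 cannot go below 0.1. The causes of these shifts were not tested.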

Other observations

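Several further genes, all chosen after their values were seen, had interactions that the lists above do not describe. The butyrophilin genes, which encode relatives of B7 immune receptors on a shared stretch of chromosome 6, were among them, a family picked for its values, with 4 of 5 members tested lower beside 2.72% of all genes. BTN3A2 was read at 1.68, 1.5 and 1.72 CPM in CTRL cells at 0 h and 3.94, 3.93 and 4.17 CPM at 48 h, and 13.7, 15.3 and 14.1 CPM in inducible cells at 0 h and 9.11, 11 and 11.1 CPM at 48 h. CTRL cells rose and inducible cells fell, and the interaction was -1.76 (SE 0.18, adjusted p = 1.59e-06). BTN2A2 also rose in CTRL and fell in inducible cells, with -1.31 (SE 0.12, adjusted p = 4.36e-07), BTN3A1 had -1.42 (SE 0.24, adjusted p = 0.000467) and BTN3A3 -1.43 (SE 0.34, adjusted p = 0.00926), whereas BTN2A1 had -0.16 (SE 0.10, adjusted p = 0.357). The BTN3A genes are near-identical copies, so their reads could be split, and the call for BTN3A3 held in 1 of 12 fits without 1 library. NES, the intermediate filament gene nestin, was at 7.93, 8.03 and 8.61 CPM in CTRL cells at 0 h and 22.7, 21.6 and 22 CPM at 48 h, and 24.6, 27.9 and 25 CPM in inducible cells at 0 h and 21, 22.7 and 21.6 CPM at 48 h. The CTRL libraries at 48 h stood above those at 0 h without overlap, and the interaction was -1.68 (SE 0.11, adjusted p = 3.83e-09). MALT1, a scaffold protease of NF-κB signalling, rose in CTRL cells (1.14) and had -1.05 (SE 0.083, adjusted p = 7.79e-08), and its exons overlap those of an antisense gene.

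In the other direction, CHGB, the granule protein chromogranin B, was at 1.68, 1.86 and 1.46 CPM in CTRL cells at 0 h and 1.59, 1.59 and 1.05 CPM at 48 h, and 0.803, 0.825 and 1.13 CPM in inducible cells at 0 h and 2.92, 3.01 and 4.17 CPM at 48 h. It rose past the FDR in inducible cells alone and gave 2.10 (SE 0.34, adjusted p = 0.000334). SNAP25, a fusion protein of synaptic vesicles, rose in both lines (2.72 in inducible and 0.99 in CTRL cells) and had 1.73 (SE 0.33, adjusted p = 0.00178). PLAC8 fell in CTRL cells (-0.81) and had 0.65 (SE 0.10, adjusted p = 0.000157). Of the hedgehog pathway, whose ligand SHH is described above, GLI2 rose in both lines (1.98 and 2.01) with an interaction of -0.031 (SE 0.41, adjusted p = 0.982), PTCH1 had -0.29 (SE 0.12, adjusted p = 0.131), and GLI1 had -1.49 (SE 0.35, adjusted p = 0.00859), a call held in 0 of the 12 fits without 1 library.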
